A study of Rattus norvegicus with 12 samples.

Results

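The genes of calcium entry and extrusion across the sarcolemma, the surface membrane of the heart muscle cell, were followed in cultures exposed to DEHP. DEHP is di(2-ethylhexyl) phthalate, a compound that softens polyvinyl chloride and escapes from it into fluids. The set held 10 genes, each measured by 1 probe set, among 14324 genes with a probe set that names 1 gene. A probe set was taken where its annotation gave exactly 1 gene symbol and that symbol was Cacna1c, Cacna1d, Cacna1g, Cacna1h, Cacnb2, Cacna2d1, Slc8a1, Atp2b1, Atp2b4 or Stim1. The DEHP group was 6 arrays of cardiomyocyte monolayers kept for 3 days in 50 µg/mL DEHP with 0.1% DMSO, and the control group was 6 arrays of monolayers kept for 3 days in 0.1% DMSO alone. Both groups came from the hearts of 2-day-old Sprague-Dawley pups of 1 litter, isolated by enzyme digestion and grown for 3 days before treatment. The labels call the cultures of a group biological replicates. Replicate error here is thus that of cultures and arrays within a single litter.

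Calcium enters a cardiomyocyte mainly through the L-type channel, a complex of a pore-forming alpha1 subunit, a cytoplasmic beta subunit and an extracellular alpha2delta subunit. That entry triggers calcium release from the sarcoplasmic reticulum and so each contraction. T-type channels open at more negative voltages, are prominent in fetal ventricle and pacemaker cells, and recede in working ventricle after birth. STIM1 senses calcium in the reticulum and opens store-operated channels in the surface membrane. Between beats the sodium-calcium exchanger removes most of the calcium that entered, and the plasma membrane calcium pumps remove a smaller part.

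The deposited values are ratios of each probe set to its own median over the 12 arrays. All values below are log2 of those ratios, so a level can be set against other arrays of the same gene but not against another gene. Where the groups do not overlap, the lowest value of one group and the highest of the other mirror each other around 0 for that reason. The same property means that the cultures' cell type could not be checked by levels, and changes of marker lists are given instead. Folds are DEHP over control from limma, with ± SE and a Benjamini-Hochberg adjusted p over all 27342 probe sets, and a gene passed at an adjusted p under 0.05. The pore subunit Cacna1c and the beta subunit Cacnb2 rose under DEHP, the pump Atp2b4 fell, and the other 7 genes did not pass. Of all probe sets 10.5% passed as higher and 7.82% as lower, 18.3% in either direction. Among probe sets that name 1 gene, 24.4% passed, so a count of 3 of 10 is near the background of this comparison. The median log2 fold was 0.05 over the 10 genes and −0.02 over all probe sets.

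The promoters of the 3 genes that passed are printed here, since the results turn on these genes and 2 of them rose together. The windows come from RefSeq on the rat assembly GRCr8 and run from 250 bases before to 50 bases after an annotated start. Capitals mark matches on either strand to 8 short motifs. They were the GC box GGGCGG, the nuclear receptor site AGGTCA, the cyclic AMP response element TGACGTCA and the E-box CACGTG. The others were the TATA box TATAAA, the CAAT box CCAAT, the TEAD factor site GGAATG and the GATA factor site AGATAA.
Cacnb2, first start, chr17:82472965-82473264, plus strand: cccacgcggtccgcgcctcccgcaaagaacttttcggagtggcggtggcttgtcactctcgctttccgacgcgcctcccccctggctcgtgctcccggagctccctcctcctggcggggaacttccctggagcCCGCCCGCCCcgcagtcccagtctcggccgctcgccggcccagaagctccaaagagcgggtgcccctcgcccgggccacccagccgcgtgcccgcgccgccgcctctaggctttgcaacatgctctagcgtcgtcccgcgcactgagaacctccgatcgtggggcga
Cacnb2, other start, chr17:82596542-82596841, plus strand: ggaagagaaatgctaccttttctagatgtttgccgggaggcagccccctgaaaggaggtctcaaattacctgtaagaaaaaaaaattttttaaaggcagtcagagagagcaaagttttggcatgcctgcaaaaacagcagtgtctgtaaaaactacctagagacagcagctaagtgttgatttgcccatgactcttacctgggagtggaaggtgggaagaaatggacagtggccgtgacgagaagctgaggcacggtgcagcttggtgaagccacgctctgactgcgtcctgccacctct
Cacna1c, chr4:154051699-154051998, minus strand: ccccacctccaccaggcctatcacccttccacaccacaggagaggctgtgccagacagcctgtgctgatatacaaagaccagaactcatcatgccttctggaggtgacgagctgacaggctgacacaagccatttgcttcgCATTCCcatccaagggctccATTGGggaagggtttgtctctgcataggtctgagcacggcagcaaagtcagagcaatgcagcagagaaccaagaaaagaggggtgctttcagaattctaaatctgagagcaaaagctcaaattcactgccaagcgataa
Atp2b4, chr13:47758827-47759126, minus strand: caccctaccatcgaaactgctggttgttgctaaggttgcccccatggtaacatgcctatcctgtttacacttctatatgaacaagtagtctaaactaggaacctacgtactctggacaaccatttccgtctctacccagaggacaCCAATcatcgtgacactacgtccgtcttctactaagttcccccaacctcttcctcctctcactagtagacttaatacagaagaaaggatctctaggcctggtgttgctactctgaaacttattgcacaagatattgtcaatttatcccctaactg
These genes have several annotated transcripts, and the array data do not tell which start was used. The first Cacnb2 window held 2 overlapping matches to GGGCGG at −117 to −112 and −113 to −108 from the start, and the other Cacnb2 window held no match. The Cacna1c window held GGAATG at −109 to −104, and CCAAT at −89 to −85. The Atp2b4 window held CCAAT at −105 to −101. Among 33469 windows of the table, 33.1% held GGGCGG, 14.2% GGAATG and 37.5% CCAAT. The nuclear receptor site AGGTCA was in 16.2% of all windows and in 1 of the 11 windows found for 8 of the 10 genes, that of Stim1. GC content was 71.7% and 48.7% in the Cacnb2 windows, 51.7% in the Cacna1c window and 44.7% in the Atp2b4 window, against a median of 51.7% over all windows.

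Cacna1c encodes the pore of the main ventricular L-type channel, Cav1.2. Its log2 ratio ran from 0.13 to 0.44 with a median of 0.38 in the 6 DEHP arrays, and from −0.35 to −0.13 with a median of −0.19 in the 6 control arrays. All 6 DEHP arrays were above every control array. The groups of 12.2% of all probe sets did not overlap. DEHP replicate 6 was the lowest DEHP array, and control replicate 5 the lowest control array. Cacna1c was 1.47-fold higher under DEHP (log2 fold 0.56 ± 0.06, limma adjusted p = 1.49e-05). Without both of those arrays the log2 fold was 0.57.

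Cacnb2 encodes the beta2 subunit, which carries the pore to the surface membrane and sets its gating. Under DEHP it ran from 0.22 to 0.57 with a median of 0.38, and in controls from −0.56 to −0.22 with a median of −0.40. Here too all 6 DEHP arrays were above every control array. Cacnb2 was 1.73-fold higher under DEHP (log2 fold 0.79 ± 0.07, limma adjusted p = 5.7e-06), the largest size among the 10 genes, and larger than that of 97.8% of all probe sets. The fold of Cacna1c was larger in size than that of 95.5% of them.

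The other L-type genes did not pass. Cacna1d encodes Cav1.3, the L-type pore of the sinoatrial node, atrium and neuroendocrine cells. It ran from −0.06 to 0.23 with a median of 0.01 under DEHP, and from −0.14 to 0.23 with a median of −0.01 in controls. The groups covered nearly the same range, and the highest array of each was DEHP replicate 6 and control replicate 5. The log2 fold was 0.05 ± 0.07 with a 95% interval of −0.10 to 0.20 and a limma adjusted p of 0.68. It was 0.01 without DEHP replicate 6 and 0.09 without control replicate 5.

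Cacna2d1 encodes the alpha2delta1 subunit, which raises the number of channels at the surface and binds gabapentin. It ran from −0.21 to 0.0029 with a median of −0.01 under DEHP, and from −0.48 to 0.23 with a median of 0.07 in controls. Control replicate 5 was the lowest of all 12 arrays, and the other 5 control arrays, at 0.02 to 0.23, were all above every DEHP array. Over all arrays the log2 fold was −0.07 ± 0.10 with a 95% interval of −0.28 to 0.15 and a limma adjusted p of 0.69. Without control replicate 5 it was −0.16 with an adjusted p of 0.048, so that 1 array decided the call, and without DEHP replicate 6 as well it was −0.18 with an adjusted p of 0.042.

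**Figure D1:**
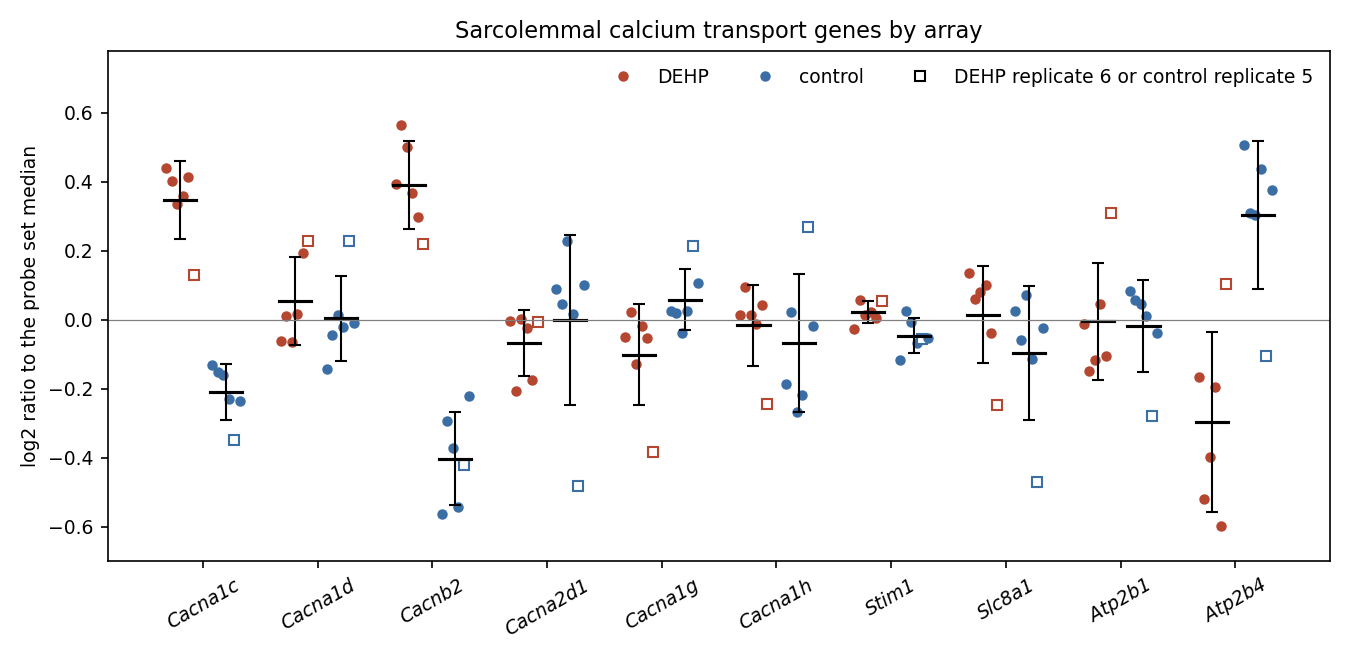
Log2 ratio to the probe set median (vertical axis) of each of the 10 genes in every array, DEHP in red and control in blue. Points are arrays, bars the mean ± SD (n = 6 each), and open squares mark DEHP replicate 6 and control replicate 5. Cacna1c and Cacnb2 lie higher in all 6 DEHP arrays, and Atp2b4 lies lower under DEHP with 1 array of each group between.

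The T-type pores did not pass. Cacna1g encodes Cav3.1, a T-type pore of the pacemaker and conduction tissue. It ran from −0.38 to 0.02 with a median of −0.05 under DEHP, and from −0.04 to 0.22 with a median of 0.03 in controls. In 4 of the 6 DEHP arrays it was below every control array, DEHP replicate 6 being the lowest. The log2 fold was −0.16 ± 0.07 with a 95% interval of −0.31 to −0.01 and a limma adjusted p of 0.14. It was −0.10 without DEHP replicate 6, and −0.07 without control replicate 5 as well.

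Cacna1h encodes Cav3.2, the T-type pore that is re-expressed in hypertrophied ventricle. Under DEHP it ran from −0.25 to 0.09 with a median of 0.01, and in controls from −0.27 to 0.27 with a median of −0.10. DEHP replicate 6 was the lowest DEHP array and control replicate 5 the highest control array, and the DEHP range lay within the control range. The log2 fold was 0.05 ± 0.09 with a 95% interval of −0.14 to 0.24 and a limma adjusted p of 0.75. Without both of those arrays it was 0.16 with an adjusted p of 0.067.

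Stim1, the calcium sensor of store-operated entry, varied least among the 10 genes. It ran from −0.03 to 0.06 with a median of 0.02 under DEHP, and from −0.12 to 0.02 with a median of −0.05 in controls. The log2 fold was 0.07 ± 0.03 with a 95% interval of −0.0046 to 0.14 and a limma adjusted p of 0.21.

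Of the 3 extrusion genes only Atp2b4 passed. Slc8a1 encodes NCX1, the sodium-calcium exchanger of the cardiac surface membrane. It ran from −0.25 to 0.14 with a median of 0.07 under DEHP, and from −0.47 to 0.07 with a median of −0.04 in controls. DEHP replicate 6 and control replicate 5 were the lowest of their groups. The log2 fold was 0.11 ± 0.09 with a 95% interval of −0.09 to 0.31 and a limma adjusted p of 0.48, and without control replicate 5 it was 0.04.

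Atp2b1 encodes PMCA1, the plasma membrane calcium pump found in nearly all cells. Under DEHP it ran from −0.15 to 0.31 with a median of −0.06, and in controls from −0.28 to 0.08 with a median of 0.03. DEHP replicate 6 was the highest of all arrays and control replicate 5 the lowest. The log2 fold was 0.02 ± 0.08 with a 95% interval of −0.17 to 0.20 and a limma adjusted p of 0.93, and its sign turned without either of those arrays, to −0.05 and −0.04.

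Atp2b4 encodes PMCA4, a pump that in mouse heart and smooth muscle is tied to signalling by nitric oxide synthase and calcineurin. It ran from −0.60 to 0.10 with a median of −0.30 under DEHP, and from −0.10 to 0.51 with a median of 0.34 in controls. In 5 of the 6 DEHP arrays it was below every control array. DEHP replicate 6, at 0.10, and control replicate 5, at −0.10, were the arrays that overlapped. Atp2b4 was 1.52-fold lower under DEHP (log2 fold −0.60 ± 0.13, limma adjusted p = 0.0043), and without both of those arrays the log2 fold was −0.76 with an adjusted p of 3.47e-05. When limma's treat asked for a fold above 1.2, Atp2b4 no longer passed (adjusted p = 0.18), while Cacna1c and Cacnb2 did (adjusted p of 0.0039 and 0.00025).

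**Figure D2:**
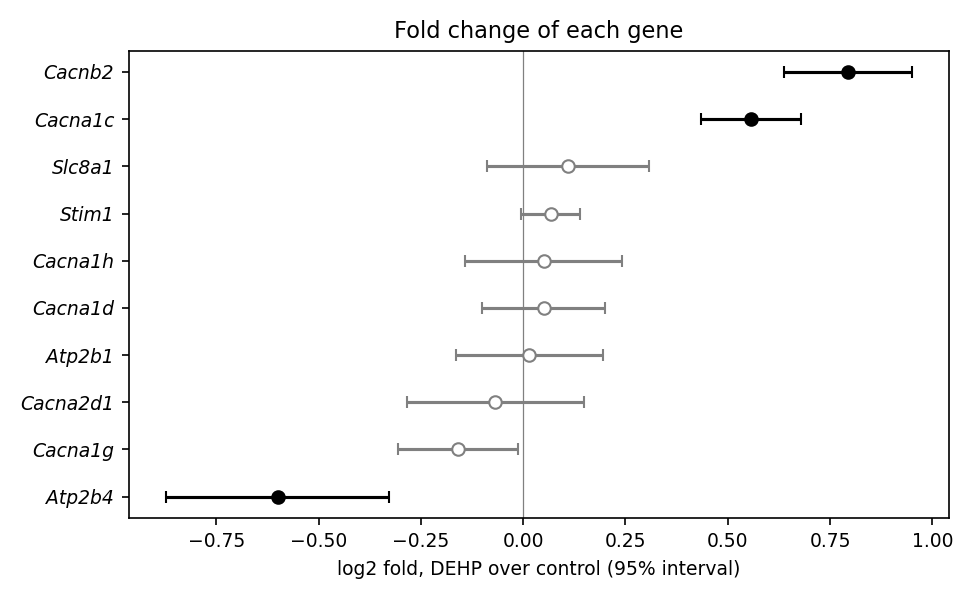
Log2 fold of DEHP over control (horizontal axis) for the 10 genes in order of size, with 95% intervals from limma (n = 6 arrays per group). Filled points passed at an adjusted p under 0.05. Cacnb2 at 0.79 and Cacna1c at 0.56 stand at the upper end and Atp2b4 at −0.60 at the lower end, with the other 7 between −0.16 and 0.11.

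Ordered by fold, Slc8a1, Stim1, Cacna1h, Cacna1d, Atp2b1, Cacna2d1 and Cacna1g lay between Cacna1c and Atp2b4. Their 95% intervals overlapped each neighbour's in that order. The interval of Cacna1c did not overlap that of Slc8a1, nor did the interval of Cacna1g overlap that of Atp2b4. Those of Cacnb2 and Cacna1c overlapped.

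Whether related genes moved unequally was tested with the difference of their log2 values within each array, by a two-sided exact permutation test over the 12 arrays. The pairs were chosen with earlier results of these data known, and each set a gene that passed limma against a gene that did not. These differences are thus not evidence apart from the calls of the single genes. The 4 differences were adjusted together, and each p was 0.0022, the smallest that the 924 splits allow, so these p do not rank the differences. Both T-type pores were lower relative to the L-type pore Cacna1c under DEHP. Cacna1c itself rose by a log2 fold of 0.56, while Cacna1h, at 0.05, and Cacna1g, at −0.16, did not pass. Cacna1h minus Cacna1c averaged −0.36 ± 0.04 in DEHP arrays and 0.14 ± 0.26 in control arrays (SD, n = 6 each, adjusted exact p = 0.0022), a change of −0.51. Every DEHP array, at −0.43 to −0.31, was below every control array, at −0.11 to 0.62. Cacna1g minus Cacna1c averaged −0.45 ± 0.06 in DEHP arrays and 0.27 ± 0.17 in control arrays (SD, n = 6 each, adjusted exact p = 0.0022), a change of −0.72. In both differences control replicate 5 was the highest array.

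The exchanger was set against Atp2a2, the pump that returns calcium to the sarcoplasmic reticulum and competes with the exchanger for the calcium of each beat. Atp2a2 rose under DEHP (log2 fold 1.05 ± 0.07, limma adjusted p = 8.09e-07), while Slc8a1 had the log2 fold of 0.11 given above. Slc8a1 minus Atp2a2 averaged −0.66 ± 0.09 in DEHP arrays and 0.28 ± 0.19 in control arrays (SD, n = 6 each, adjusted exact p = 0.0022), a change of −0.94. Every DEHP array, at −0.81 to −0.57, was below every control array, at −0.06 to 0.48. The plasma membrane pumps also moved unequally. Atp2b1 minus Atp2b4 averaged 0.29 ± 0.12 in DEHP arrays and −0.32 ± 0.11 in control arrays (SD, n = 6 each, adjusted exact p = 0.0022), a change of 0.61. The groups of this difference did not overlap although those of Atp2b4 itself did. In DEHP replicate 6 both pumps were at the top of their group, and in control replicate 5 both were at the bottom.

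**Figure D3:**
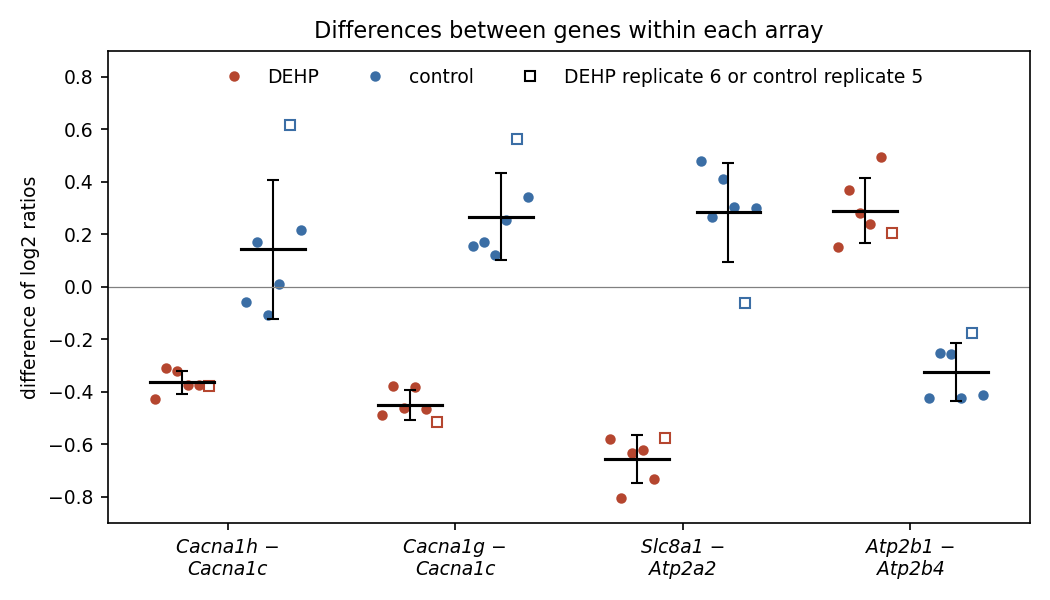
Difference of the log2 ratios of 2 genes within each array (vertical axis) for the 4 pairs tested, DEHP in red and control in blue. Points are arrays, bars the mean ± SD (n = 6 each), and open squares mark DEHP replicate 6 and control replicate 5. In each pair the 6 DEHP arrays lie apart from the 6 control arrays.

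By Pearson correlation of log2 ratios over the 12 arrays, the genes most like Cacnb2 were Pink1, a mitochondrial kinase (0.989, log2 fold 0.60 ± 0.06), Fmo2, a flavin monooxygenase (0.988, 0.97 ± 0.08), and Atp6ap1, an accessory subunit of the vacuolar proton pump (0.984, 0.43 ± 0.04). Those most like Cacna1c were Slc39a10, a zinc importer (0.995, 1.003 ± 0.107), Sulf2, a heparan sulfate sulfatase (0.988, 0.90 ± 0.08), and Lpin1, a phosphatidate phosphatase (0.986, 1.23 ± 0.08). Cacna1c and Cacnb2 correlated at 0.935 with each other. These values share the 12 arrays and the shift between groups, and describe likeness alone. Across the same arrays Atp2b4 correlated at −0.841 with Cacnb2 and at −0.798 with Cacna1c.

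The other genes of these pathways were counted in lists. Beside each list's count stands the share of probe sets naming 1 gene that passed in either direction, 24.4%. Of 20 other subunits of voltage-gated calcium channels 18 were measured, and limma called 0 of them, with 3 at an unadjusted p under 0.05. Their median log2 fold was −0.10, and 17 of the 18 folds were below 0. The list mean was 0.33 in control replicate 5, the highest control array, and −0.05 in DEHP replicate 6, the lowest DEHP array. Without both arrays 1 of the 18 fell and 0 rose. The ratios do not show whether these 18 genes were expressed, so the lack of calls need not mean stable expression. Of 10 other exchangers and plasma membrane pumps, 1 rose, 1 fell and 8 did not pass, with a median of −0.07. Slc24a3, a potassium-dependent sodium-calcium exchanger, ran from −0.57 to −0.15 under DEHP and from 0.15 to 0.57 in controls. It fell with no overlap of the groups (log2 fold −0.74 ± 0.09, limma adjusted p = 4.94e-05). Slc8b1, the sodium-calcium exchanger of mitochondria, rose by a log2 fold of 0.13 ± 0.04 (limma adjusted p = 0.046) and lost the call in 12 of 20 alternatives.

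Of 19 store-operated and TRP channel genes 15 were measured, with 2 rises, 1 fall and 12 that did not pass, and a median of 0.0048. Trpc6, a cation channel opened by diacylglycerol, ran from −0.50 to −0.30 under DEHP and from 0.30 to 0.72 in controls. It fell with no overlap of the groups (log2 fold −0.92 ± 0.07, limma adjusted p = 1.37e-06). Trpv2, a cation channel present at the intercalated disc, rose by a log2 fold of 0.37 ± 0.08 (limma adjusted p = 0.0073) and did not pass treat at a fold of 1.2 (adjusted p = 1.0). Stim2, the calcium sensor related to Stim1, rose by 0.33 ± 0.10 (limma adjusted p = 0.031) and lost the call without any 1 of 5 arrays, with adjusted p up to 0.073. Of these 15 genes 3 rose and 2 fell without both DEHP replicate 6 and control replicate 5.

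Regulators and partners of these proteins changed in both directions. Of 33 listed 28 were measured, and 7 rose, 8 fell and 13 did not pass, with a median log2 fold of −0.04. Among all probe sets that name 1 gene, 24.4% passed in either direction. Akap5, which anchors protein kinase A and calcineurin at the L-type channel, had the smallest p of the list. It ran from −0.58 to −0.26 under DEHP and from 0.26 to 0.94 in controls (log2 fold −0.93 ± 0.10, limma adjusted p = 1.63e-05). Calm2, a gene for calmodulin, the calcium sensor of the L-type channel and activator of the plasma membrane pumps, fell by 0.74 on the log2 scale (limma adjusted p = 6.23e-05). Nptn, neuroplastin, an auxiliary subunit of the plasma membrane pumps, fell by 0.35 (limma adjusted p = 5.35e-05) and did not pass treat at a fold of 1.2 (adjusted p = 0.37). Fgf13, a fibroblast growth factor homologous factor that binds sodium channels, rose by 0.47 ± 0.05 (limma adjusted p = 1.72e-05).

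Small G proteins of the RGK family bind the beta subunit and inhibit L-type channels, and they did not move together. Rem1 ran from −0.62 to −0.15 under DEHP and from 0.15 to 0.55 in controls, and fell (log2 fold −0.81 ± 0.09, limma adjusted p = 2.14e-05). The other members of the family are named here after their values were seen. Gem rose by 0.49 ± 0.06 (limma adjusted p = 8.73e-05) and Rrad by 0.48 ± 0.09 (limma adjusted p = 0.0018). At a fold of 1.2 Gem passed treat (adjusted p = 0.036) and Rrad did not (adjusted p = 0.25). Rem2 had a log2 fold of −0.06 ± 0.06 (limma adjusted p = 0.58).

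The exchanger is driven by the sodium gradient, and of 7 listed genes of sodium handling 2 were measured. Atp1b2, a beta subunit of the sodium pump, ran from 0.08 to 0.76 under DEHP and from −0.38 to −0.08 in controls, and rose (log2 fold 0.78 ± 0.10, limma adjusted p = 0.00015). Atp1b1, the beta subunit that predominates in heart, had a log2 fold of 0.01 ± 0.05 (limma adjusted p = 0.91).

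**Figure D4:**
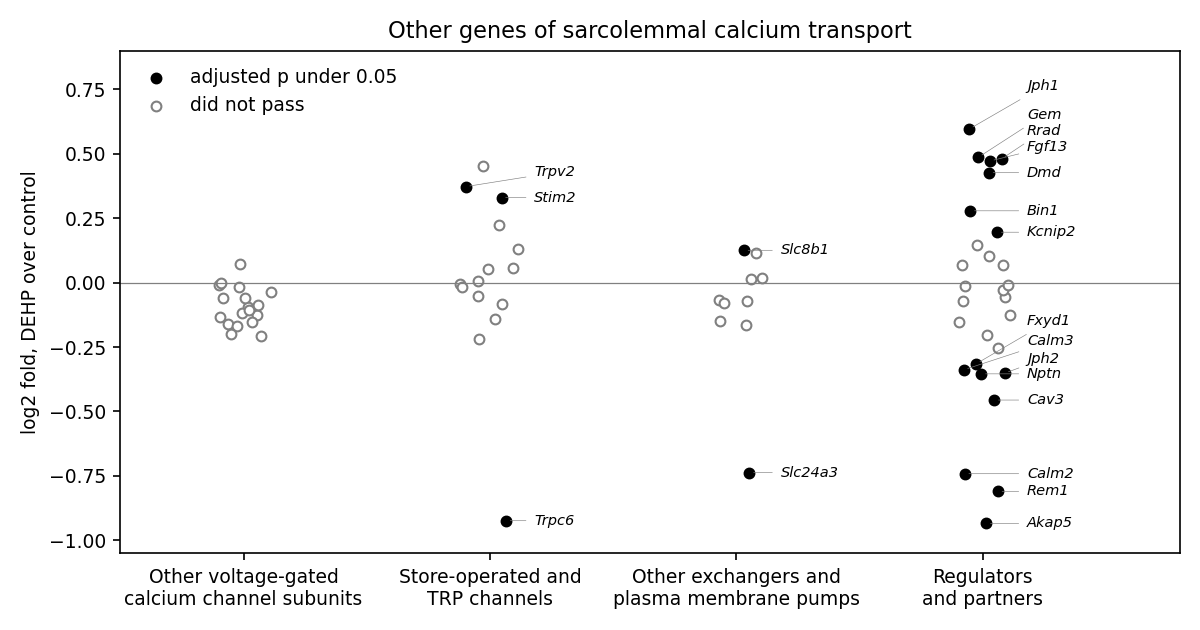
Log2 fold of DEHP over control (vertical axis) for the measured genes of 4 lists, 1 point per gene, spread sideways for legibility. Filled points with names passed limma at an adjusted p under 0.05. None of 18 other channel subunits passed, Trpc6 and Slc24a3 were the lowest of their lists, and regulators lay on both sides of 0.

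Markers listed for cardiomyocytes and for other cells that could be present moved in the same arrays. Their counts stand beside the 24.4% of probe sets naming 1 gene that passed in either direction. L-type channel genes and Atp2b4 are also expressed in smooth muscle. Markers listed for smooth muscle and myofibroblasts together fell in 10 of 10 measured cases of 13 listed. They include Des (log2 fold −0.29) and Myocd (−0.39), which are not particular to those cells and are expressed in cardiomyocytes too. The mean log2 ratio of the 10 measured markers ran from −1.01 to −0.53 under DEHP and from 0.52 to 0.70 in controls. It was lowest in DEHP replicate 6, where Atp2b4 was the highest of the DEHP arrays, and lowest among controls in control replicate 5, where Atp2b4 was the lowest of the control arrays. Of 15 cardiomyocyte markers 4 rose, 6 fell and 5 did not pass, with means of −0.33 to 0.21 under DEHP and −0.10 to 0.09 in controls. Of 12 fibroblast markers 4 rose and 7 fell, and of 9 endothelial markers measured 4 rose and 1 fell. Of 10 Schwann cell and neuronal markers measured 0 rose and 3 fell, and of 12 leukocyte markers 2 rose and 3 fell. Without both DEHP replicate 6 and control replicate 5, 6 endothelial markers rose and 1 fell, 2 leukocyte markers rose and 6 fell, and 0 Schwann cell and neuronal markers rose and 2 fell. The part of cell composition in the changes of Cacna1c, Cacnb2 and Atp2b4 was not tested. In these bulk samples fewer cells of a type and less RNA per cell cannot be told apart.

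By spread over all probe sets, DEHP replicate 6 and control replicate 5 stood apart. Their log2 ratios had SDs of 0.27 and 0.37, while those of the remaining 10 arrays were 0.15 to 0.19. By limma's array weights, DEHP replicate 5, at 0.50, was about as low as DEHP replicate 6, at 0.49, and control replicate 5 was at 0.14. The calls of Cacna1c, Cacnb2 and Atp2b4 held without DEHP replicate 6 and control replicate 5, singly or together, and without DEHP replicate 5. The call of Cacna2d1 was made without control replicate 5.

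**Figure D5:**
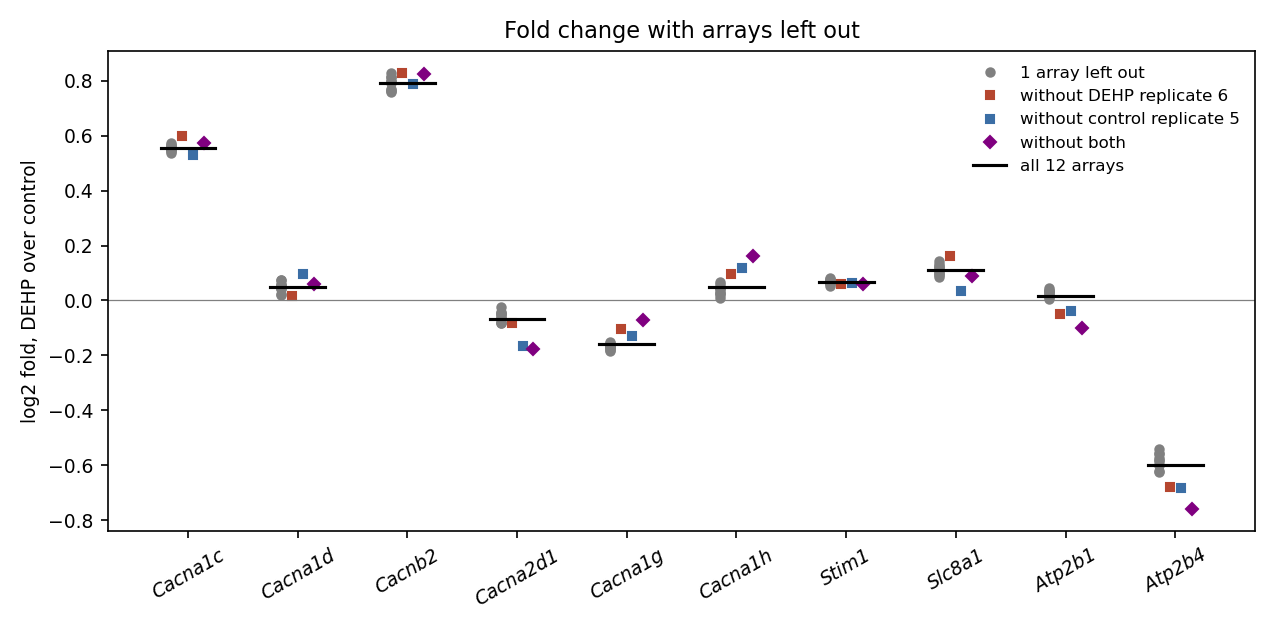
Log2 fold of DEHP over control (vertical axis) for each of the 10 genes with all 12 arrays (black line), with 1 array left out (points), and without both DEHP replicate 6 and control replicate 5 (diamonds). Cacnb2 stayed between 0.76 and 0.83 and Cacna1c between 0.53 and 0.60 with 1 array left out, and Atp2b1 crossed 0.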

How the data were processed

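RNA from 12 cardiomyocyte cultures was hybridised to Affymetrix arrays, 1 per culture. RMA was used, per the submitters' processing notes, its version not being stated. The authors deposited linear ratios, and the median log2 ratio of each of 27342 probe sets over the 12 arrays was 0 within 5.0e-07, so they hold no level and no filter on dim probe sets was possible. The number of arrays limits the precision.

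Log2 of the deposited ratio was fitted with limma 3.58.1 (R 4.3.3) with lmFit and eBayes, two-sided, over all 27342 probe sets. Probe sets were named from GEO's platform annotation: 15097 had 1 gene symbol, 323 several and 11922 none named there. Of these, 15067 matched a RefSeq table of GRCr8 by Entrez identifier, and 0 symbols differed. A gene with several probe sets took its lowest-numbered one. Tested on simulated data with independent noise and 200 altered probe sets among 27342, the fit found 85% at a log2 change of 0.5 and 96% at a log2 change of 1, with 8 false among 189 calls.

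The 10 genes, the other lists and the tests were chosen with earlier results of these data known. Named genes were the 10, up to 5 per list that passed with the smallest p, Atp2a2, and the 3 most correlated with each of the 2 members of smallest p. Alternatives were quantile normalization, median centring, robust eBayes, array weights, the replicate number as a block, arrays left out, probe sets with 1 symbol, an adjusted p under 0.01, treat at a fold of 1.2 and the linear ratio. Plots were drawn with matplotlib 3.10.9.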

Additional observations from a re-analysis of the deposited data

Results flagged for a closer look

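In 7 cases 1 array lay far from the other 5 of its group, among 28 groups of values looked at (the 10 genes and the 4 differences in both groups), where chance flags about 1 in 20. DEHP replicate 6 was such an array for Cacna1c at 0.13 (the other DEHP arrays 0.33 to 0.44), for Cacna1g at −0.38 (−0.13 to 0.02) and for Cacna1h at −0.25 (−0.01 to 0.09). Control replicate 5 was such an array for Cacna2d1 at −0.48 (the other controls 0.02 to 0.23), for Slc8a1 at −0.47 (−0.11 to 0.07), for Atp2b1 at −0.28 (−0.04 to 0.08) and for Atp2b4 at −0.10 (0.30 to 0.51). All 7 lay on the low side and in these arrays, which also had the widest spread of log2 ratios over all probe sets.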

How the results depend on the processing

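The count of 2 genes higher held under each alternative run, and Cacna1c and Cacnb2 kept their calls in each. The count of 1 gene lower became 2 without control replicate 5, and also without both it and DEHP replicate 6, through Cacna2d1. It became 0 under treat, which asks for a minimum fold, through Atp2b4. With single arrays left out that count ran from 1 to 2 and the count of genes higher stayed at 2. Over all probe sets 5016 passed, 7614 with array weights, 1182 under treat, 3238 at an adjusted p under 0.01, and 4211 to 5556 with 1 array left out. The 4 within-array differences kept their direction and their side of the threshold in each alternative run for them. Much of that was fixed in advance. Median centring cancels in such a difference, and groups that do not overlap stay apart when arrays are left out or paired. Same-numbered cultures are not said to share anything beyond the litter. The correlation of their deviations from the group means ran from 0.07 to 0.77 and exceeded 0.1 in 5 of 6 pairs, and 2 of 6 DEHP arrays correlated best with their own number, so the numbers were not taken as pairs. With the replicate block, 6541 of all probe sets passed, against 5016 without it, and 2 of the 10 genes were higher and 1 lower. In a paired form of the exact test the 4 differences each had a p of 0.031, the smallest that 6 pairs allow. That paired test was chosen after seeing the data. Averaging the probe sets of a gene was not run, since each of the 10 genes and Atp2a2 had 1. Brightness over background is not held in ratios, so dim probe sets could not be set aside.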
